A study of Mus musculus with 38 samples.

Results

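MYC-2983 is a cell line made from a kidney tumour of a MYC mouse, and the comparison described here sets its 4 libraries grown with doxycycline (Dox) against the 3 libraries of MYC tumours, 7 of the 38 libraries of the series. The libraries were chosen by their labels alone. MYC mice carried 2 transgenes, Ksp-rtTA and Tet-O-MYC, so that Dox switched on MYC in the kidney tubule under the Ksp (cadherin-16) promoter, and the study's methods give Dox chow from about 8 weeks of age. Vhl and Cdkn2a were not targeted in these animals. The labels give all 7 libraries the genotype MYC+, kidney as the source and maintenance on Dox; per the study methods, Dox was added to the medium at 2 µg per ml and cells were harvested 24 h after they were plated. Age at collection and sex are not given in the sources used here. One tumour library came from animal 2917 and 2 tumour libraries, J5 and J6, came from animal 2983, the animal the line was made from. The comparison therefore rests on 1 line and 2 animals. Nothing in the labels says that the 4 cell libraries were separate cultures, so the spread between them may be technical. The numbers that end the sample titles restart between the cell libraries and the tumours, so that library set and group cannot be told apart.

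MYC is a transcription factor that binds DNA with MAX and is known for driving cell growth, ribosome production and the cell cycle. The tubule epithelium from which such tumours arise reabsorbs filtered solutes, burns fatty acids and makes glucose under the control of factors such as HNF4A. A tumour is a tissue that also holds macrophages, vessels, fibroblasts and blood, whereas a line consists of the cells that grew in culture.

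Values are the deposited gene signals, called units here, scaled so that the upper quartile of the genes above 0 in a library was about 1000. Unless said otherwise, values are listed for cell replicates 1 to 4 and for tumours in the order 2917, J5 and J6. One read was worth 0.524 to 0.559 units in the cell libraries, with 24.8 to 26.9 M estimated reads, and 0.933 to 1.54 units in the tumours, with 9.44 to 15.4 M. A level of 3 reads, at most 1.68 units in the cells and 2.8 to 4.63 units in the tumours, served as a floor, which covers counting error only. Differences are log2(value + 1) in cells minus tumours from limma, with both libraries of animal 2983 averaged first. The SE and adjusted p of a gene therefore leave out the spread between J5 and J6. They pool the spread between the cell libraries, which may be technical, with that between the tumour animals. A small SE is thus no measure of how far the tumour libraries spread. A gene was called with a Benjamini-Hochberg adjusted p under 0.05 over all tested genes and a difference of more than 1. Folds are on the same log2(value + 1) scale and understate changes of low genes. Where every library of the lower group lay at or under the floor, the fold was computed on this scale with that group set to 3 reads, and it gives only the least size of the change.

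Of 16317 genes tested, 6275 were called (38.5%), 2011 higher in the cells (12.3%) and 4264 lower (26.1%). The ranges of the 4 cell and 3 tumour libraries did not overlap for 9881 genes (60.6%). These shares are the background against which each gene list is read below. The lists were chosen with earlier results of these data known, so their counts describe the data and are no independent evidence of a direction. The median difference over all genes was -0.21, and it was -0.04 after TMM scaling and 0.13 after quantile normalization. The split of calls depended on the scaling, with 2582 higher and 3750 lower after TMM and 3238 higher and 2753 lower after quantile normalization. A fit that gave each group its own variance called 1567 of the 16317 genes higher and 2550 lower. Counts of list members with a variance per group are to be read against these. Of its 4117 calls, 4107 were also called in the fit with 1 variance. Across 11536 genes, Pearson's r of log2 values was 0.997 between cell libraries, 0.82 to 0.88 between tumour libraries, 0.521 to 0.524 between cells and the 2917 tumour, 0.692 to 0.696 between cells and J5, and 0.660 to 0.664 between cells and J6. Genes are not independent replicates, and these values are descriptions.

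**Figure D1:**
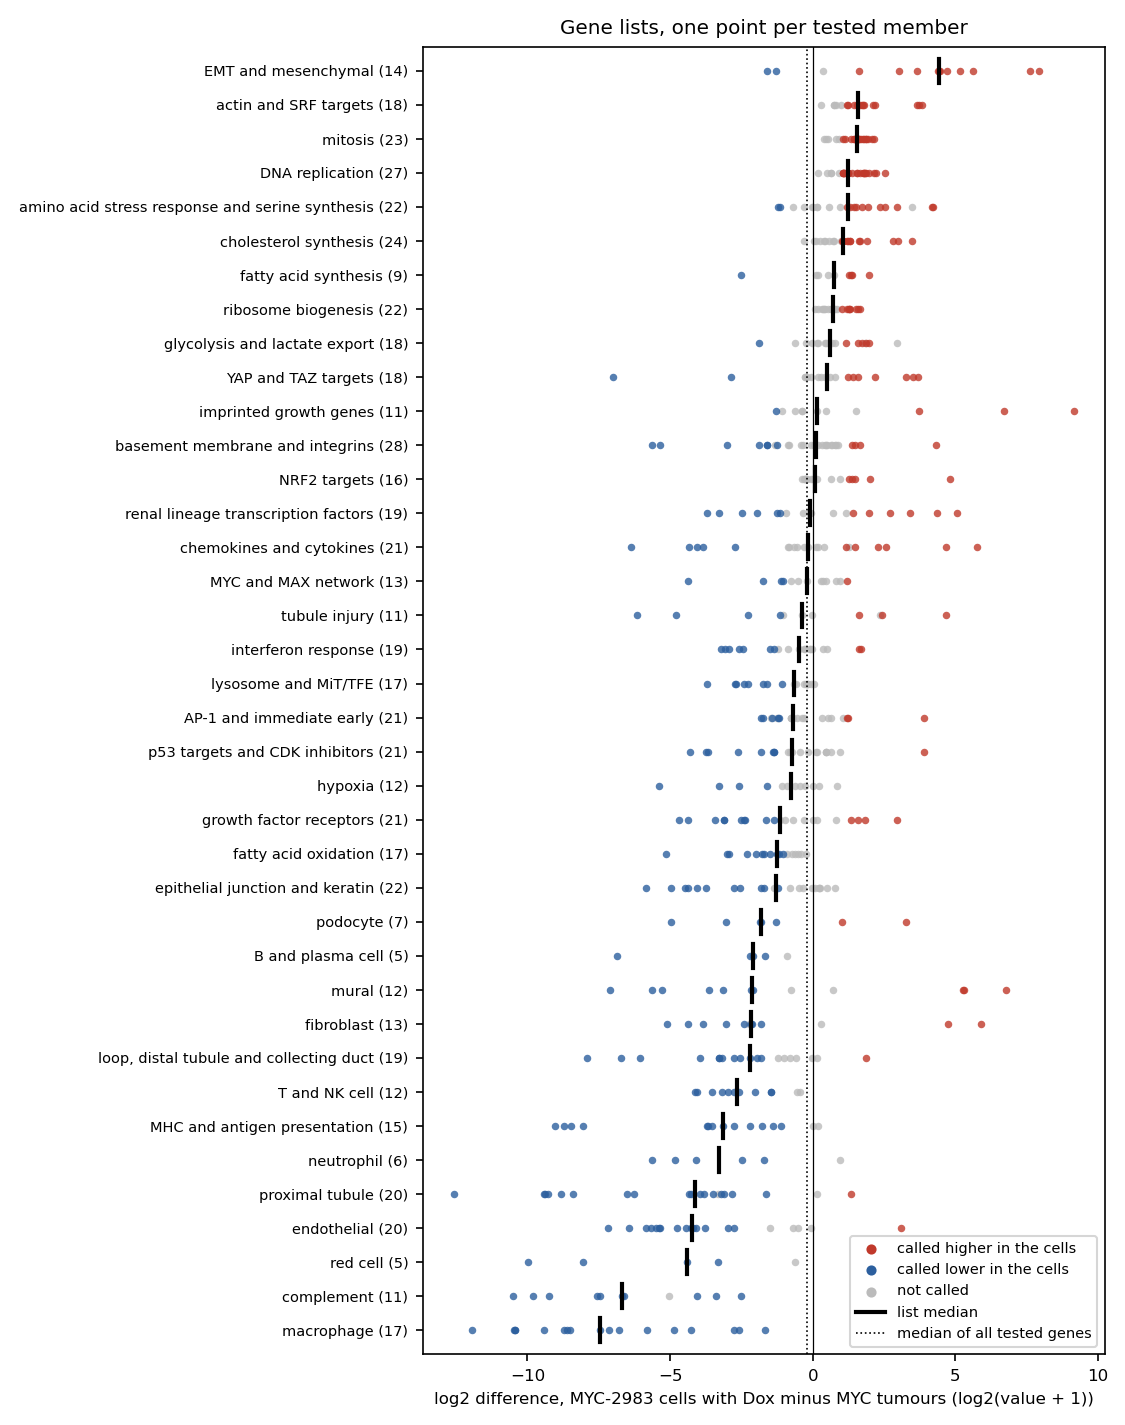
Each point is 1 tested member of a gene list, placed by its log2 difference between MYC-2983 cells with Dox and MYC tumours (x axis, log2(value + 1)); lists are ordered by their median (black bar), the number of tested members stands after each name, and colour marks genes called higher, called lower or not called. Members of the macrophage, complement and endothelial lists lie far to the left, members of the EMT list mostly to the right, and DNA replication and mitosis members sit in a narrow band between 0 and 3.

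The genes that define the models and the kidney identity of the samples were examined first. Myc stood at 699, 693, 651 and 661 units in the cells and at 208, 438 and 389.8 units in the tumours, 2.3-fold higher in the cells (log2 1.20, SE 0.25, adjusted p = 0.006, limma). The groups did not overlap, and the 2917 tumour was the lowest library. Without that library the difference was 0.71 and was no longer called. The row does not say which reads came from the transgene, and in the libraries labelled as MYC-2983 cells without Dox it read higher, at 1764 to 1868 units, so it cannot serve as a check of Dox treatment. The same order was seen in VM cells, at 338 to 413 units with and 1308 to 1406 units without Dox, and in VIM cells, at 359.8 to 432 and 1384 to 1532 units. Whether the Dox labels are the right way round was not tested, and "with Dox" is used as labelled. Normal kidney stood at 40.7 to 119 units (n = 5). The titles of these kidneys begin with B6 or KT, and both kinds are pooled wherever normal kidney is given.

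Vhl, the tumour suppressor that tags HIF for destruction, stood at 433 to 461 units in the cells and 559.7, 471 and 468 units in the tumours and was not called (log2 -0.18, SE 0.09, adjusted p = 0.12). Cdh16, the kidney cadherin whose promoter drives the transgenes, stood at 8407, 9172, 9660.0 and 8373 units in the cells, below its 13766, 12503 and 10230.2 units in the tumours, with a difference of -0.49 (SE 0.11) that did not exceed 1. Pax8, a tubule lineage factor, stood at 2520.4 to 2754 units in the cells and 2371, 3424 and 3547 units in the tumours (log2 -0.14, SE 0.15). It was not called, and the small differences of Vhl and Pax8 turned positive under TMM scaling. Both groups carried the defining kidney genes of their label. Y-linked Ddx3y was at 1464 to 1507 units in the cells and 1542 to 1607 units in the tumours, and Xist at most at 1.12 and 15.9 units, with no library standing apart.

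Cdkn2a, which encodes the cell cycle inhibitors p16INK4a and p19ARF, stood at 3162, 3056, 3161 and 3306 units in the cells. Its tumour levels were 108 units in 2917, 2872 units in J5 and 59.3 units in J6. J5 lay just under the cells, whereas the other library of the same animal lay near the 2917 tumour. The difference was 3.89 (SE 0.48, adjusted p = 0.00061), and without J6 it was 2.50 and was not called (adjusted p = 0.12). Normal kidney stood at 0 to 3.8 units.

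Most markers of the immune, endothelial and red cells that a tumour holds beside its tumour cells were called lower in the line, many of them at or near 0 there. In bulk samples, fewer cells of a type and less RNA per cell cannot be told apart. All 17 tested macrophage markers were called lower, against 26.1% of all genes (16 with a variance per group), with a median of -7.46, or -7.10 with genes at the floor set to their bound. Their summed level was 561 to 621 units in the cells and 31022, 8609.6 and 8350.3 units in the tumours. Lyz2, the lysozyme of macrophages, stood at 0.559, 0, 0 and 0 units in the cells and 11299, 1609.6 and 1801 units in the tumours, at least 1639-fold lower in the cells (adjusted p = 4.8e-05). The 3 chains of complement C1q showed the same arrangement. C1qa was at 2861, 901 and 781 units, C1qb at 2755, 722 and 712 units and C1qc at 2777, 689.8 and 701 units in the tumours, whereas the highest value of any of them in a cell library was 0.544 units. They were at least 579-, 525- and 519-fold lower (adjusted p = 2.7e-05, 2.8e-05 and 2.9e-05). Emr1, which encodes F4/80, was at 0 in all 4 cell libraries and at 790.1, 187 and 155 units in the tumours. Ctss, the cysteine protease cathepsin S of antigen-presenting cells, stood at 0 to 0.524 units in the cells and 3809, 1022 and 585 units in the tumours, at least 641-fold lower. The 2917 tumour held the highest level of each of these genes, and the 3 tumours lay above all cell libraries.

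Csf1r, the receptor for CSF1, departed from this pattern in its level. It stood at 228, 198, 230.3 and 231 units in the cells and 2427, 965 and 929 units in the tumours, 6.82-fold lower in the cells (log2 -2.77, SE 0.35, adjusted p = 0.00066) yet far above the floor. VM and VIM cells with Dox stood at 331 to 379 and 259 to 294 units. Csf1, its ligand, stood at 3089.9, 3036, 2942 and 3198 units in the cells and 794, 448 and 542 units in the tumours, 4.89-fold higher in the cells (log2 2.29, SE 0.18, adjusted p = 0.0001). Cd68, a lysosomal protein of macrophages that other cells also make, was at 14 to 19.9 units in the cells and 715, 281 and 469 units in the tumours.

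Of 12 T and NK cell genes, 10 were called lower and none higher (7 lower with a variance per group). The list summed to 218 to 256 units in the cells and to 483, 565 and 395 units in the tumours. Cd8a was at most at 0.542 units in the cells and at 52.2, 20.1 and 1.41 units in the tumours, so that J6 lay under the floor as well. Igj, the joining chain of antibodies, was at 0, 1.09, 0 and 0 units in the cells and 143, 991 and 16.9 units in the tumours, at least 51.7-fold lower. Of 5 B and plasma cell genes 4 were called lower (3 with a variance per group). All 5 were at or under the floor in the cells, and the list's median was -2.09, or -0.67 with floor genes at their bound. Among 6 neutrophil genes 5 were called lower (3 with a variance per group), led by Csf3r, the G-CSF receptor, at 0 in the cells and 93.3, 35.5 and 18.4 units in the tumours. Hba-a2, an alpha-globin gene of red cells, was at most at 0.544 units in the cells and at 1549, 1640.4 and 414 units in the tumours. Of 5 red cell genes 4 were called lower (3 with a variance per group). Emcn, a glycoprotein of vessel lining, was at 0 in the cells and at 152, 343 and 53.7 units in the tumours, at least 54.1-fold lower. Cdh5, the endothelial cadherin, was at 0.542 to 1.12 units in the cells and 136, 474 and 66.4 units in the tumours. In both genes J5 was the highest tumour. Of 20 endothelial genes 15 were called lower (12 with a variance per group), and the list's median was -4.24, or -3.34 with floor genes at their bound.

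The single endothelial marker called higher was Flt1, which encodes the VEGF receptor 1. It stood at 607, 608, 584 and 631 units in the cells and 57.8, 258 and 28.2 units in the tumours, 8.5-fold higher (log2 3.09, SE 0.16, adjusted p = 2.9e-05), while Pecam1, expressed throughout endothelium, stood at 1.57 to 4.33 units in the cells and 196, 439.8 and 52.3 units in the tumours. Flt1 was also at 761 to 789 units in VM cells and 1081 to 1112 units in VIM cells.

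Mural and fibroblast lists were split. Rgs5, a pericyte gene, was at 0 in all cell libraries and 95.1, 461 and 83.3 units in the tumours, and 7 of 12 mural genes were called lower. The 3 called higher were Acta2, Tagln and Cnn1, contractile genes of smooth muscle that myofibroblasts and cultured cells also express. Acta2 (smooth muscle actin) stood at 17135, 16828, 15668 and 18453 units in the cells and 101, 1265 and 2788 units in the tumours (log2 5.28, SE 1.04, adjusted p = 0.0046). Tagln (transgelin) stood at 15509 to 18952 units in the cells and 159, 1441 and 942 units in the tumours, and Cnn1 (calponin 1) at 824 to 929 and 0.933, 50.9 and 21.2 units. All 3 were higher in every cell library than in any tumour library, with 2917 the lowest. In fibroblast genes, 8 of 13 were called lower, and only 3 with a variance per group. Dcn, the matrix proteoglycan decorin, stood at 6.29 to 13.6 units in the cells and 207, 912 and 275 units in the tumours, 34.2-fold lower, and Pdgfra, a receptor of fibroblasts, at 2.62 to 4.47 and 85.8, 273 and 28.2 units, 21-fold lower. Postn, the matrix protein periostin, went the other way, with 9582, 9319, 8665 and 9603 units in the cells and 64.4, 716 and 196 units in the tumours, 59.2-fold higher (log2 5.89, SE 0.62, adjusted p = 0.00034). VM and VIM cells with Dox held 7.39 to 11.1 and 24.3 to 38.8 units of Postn and 0 to 1.48 and 441 to 615 units of Acta2. Of 7 podocyte genes 5 were called lower and 2 higher; Ptpro, a phosphatase of podocytes, was lowest in difference, with at most 0.544 units in the cells and 68.1, 34 and 12.7 units in the tumours. Wt1, which is also active in the embryonic kidney, stood at 26.1 to 35.8 units in the cells and 0.933, 34 and 0 units in the tumours, with J5 inside the range of the cells; without J6 its difference was 1.98 and not called.

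**Figure D2:**
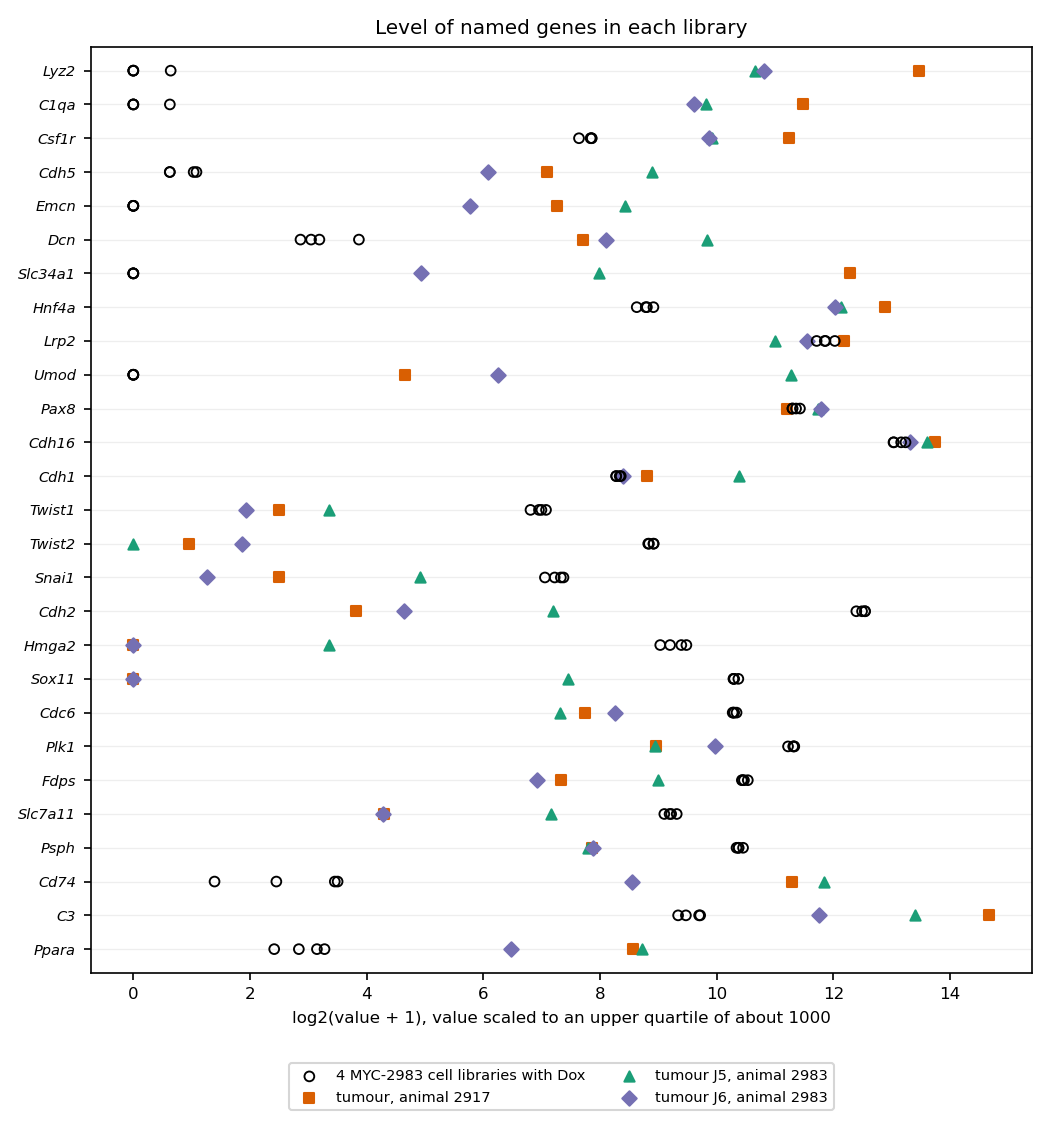
Level of named genes in each library as log2(value + 1) on the x axis, with open circles for the 4 MYC-2983 cell libraries with Dox and filled symbols for the 3 MYC tumour libraries. The cell circles of a gene lie close together except near 0, Pax8, Lrp2 and Cdh16 overlap or lie close between the groups, and for Sox11, Fdps and Slc7a11 the J5 symbol lies between the cells and the other 2 tumours.

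Differentiated functions of the proximal tubule, which reabsorbs most of the filtered load, were lower in the line. Of 20 proximal tubule genes 17 were called lower and 1 higher (14 and 1 with a variance per group). The median was -4.12, or -3.70 with floor genes at their bound. Slc34a1, the phosphate transporter of the brush border, was at 0 in all 4 cell libraries and at 5019.6, 252 and 29.7 units in the tumours, at least 248-fold lower (adjusted p = 0.0017). The tumours spread widely, with 2917 far above both libraries of animal 2983. Slc7a9 and Slc3a1 together form the cystine transporter. Slc7a9 was at 0 in the cells and 1584, 336 and 174 units in the tumours, at least 232-fold lower, and Slc3a1 was at 3.46 to 5 and 5095, 799 and 1408 units, 453-fold lower (log2 -8.82, SE 0.60). Slc27a2, a fatty acid transporter and acyl-CoA synthetase of liver and kidney that was named by the rule for the largest falls, was at 0 in the cells and 7797, 1051 and 216 units in the tumours, at least 721-fold lower.

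Not all proximal genes were lower. Lrp2, the endocytic receptor megalin, stood at 3699, 3731, 3359 and 4169 units in the cells and 4633, 2043 and 2982 units in the tumours and was not called (log2 0.14, SE 0.24, adjusted p = 0.63). Aqp1, the water channel of the proximal tubule, stood at 1224, 1119, 1162 and 1329.7 units in the cells and 307, 682 and 835 units in the tumours (log2 1.32, SE 0.33, adjusted p = 0.012), all cell libraries above all tumours. Without 2917 the Aqp1 difference was 0.68 and was not called.

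Among 19 genes of the loop, distal tubule and collecting duct, 12 were called lower and 1 higher, and with a variance per group 6 and 0. Umod (uromodulin), the marker of the thick ascending limb, was at 0 in the cells and 24.3, 2475 and 74.9 units in the tumours, with J5 far above the other 2. Cldn10, a claudin of the loop, was at 0 to 1.68 units in the cells and 1131, 149.7 and 246 units in the tumours (log2 -7.91, SE 0.78). The gene called higher, the water channel Aqp3, was low throughout, at 9.96 to 15.8 units in the cells and 0.933, 13.9 and 2.82 units in the tumours, and lost its call when any of cell replicates 1, 2 or 3 or tumours 2917 or J6 was left out (log2 1.88, 1.77, 1.82, 0.88 and 1.37).

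The factors that maintain the tubule program divided. Hnf4a, the nuclear receptor that switches on proximal tubule genes, stood at 446, 439.9, 482 and 395 units in the cells and 7565, 4472 and 4157 units in the tumours, 13-fold lower (log2 -3.70, SE 0.22, adjusted p = 4.3e-05). Tfcp2l1, a factor of distal segments, stood at 771, 863, 884 and 822 units in the cells and 4487, 4744 and 4726 units in the tumours, 5.52-fold lower. In both the cell libraries lay below every tumour. Normal kidney held 14259.5 to 17332 units of Hnf4a. Eya1, a transcriptional co-factor of the embryonic kidney, stood at 76 to 88.6 units in the cells and at or under the floor in all tumours, at least 14.5-fold higher (adjusted p = 3.4e-05). Of 19 renal lineage factors 6 were called higher and 6 lower, against 12.3% and 26.1% of all genes. With a variance per group these counts were 3 and 6.

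Of 22 genes of epithelial junctions and keratins, 11 were called lower and none higher (8 lower with a variance per group; median -1.29). Cldn7, a claudin of tight junctions, stood at 3.35, 2.72, 5.42 and 8.91 units in the cells and 284, 481 and 278 units in the tumours, 57.1-fold lower (log2 -5.83, SE 0.45, adjusted p = 9.7e-05). Ocln (occludin), another junction protein, stood at 70.1 to 79.1 units in the cells and 674 to 1215 units in the tumours, 13.3-fold lower, and Krt8, a keratin of simple epithelia, at 287 to 304 and 812, 3421 and 395 units, 3.31-fold lower; without J5 the Krt8 difference was -0.95 and was not called. Cdh1 (E-cadherin) stood at 309.7, 322, 327 and 309 units in the cells and 446, 1339.5 and 335 units in the tumours. All cells lay below all tumours, but the difference was -0.78 (SE 0.16, adjusted p = 0.0055) and under the size called.

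The list of epithelial-mesenchymal transition (EMT) and mesenchymal genes had the highest median of all lists, 4.41. Of 14 members 11 were called higher and 2 lower, and the counts were the same with a variance per group. Twist2 (chr1:93698038-93744605, NCBIM37), a transcription factor of mesenchyme, stood at 484, 482, 457 and 453 units in the cells and 0.933, 0 and 2.63 units in the tumours, all at or under the floor, at least 83.5-fold higher (adjusted p = 6.2e-06). Twist1, its relative, stood at 123, 127, 134 and 111 units in the cells and 4.66, 9.26 and 2.82 units in the tumours (log2 4.38, SE 0.19), and Snai1, the repressor of E-cadherin, at 165, 148, 159.8 and 132 and 4.66, 29.3 and 1.41 units (log2 4.45, SE 0.24). Cdh2 (N-cadherin) stood at 5972, 5762, 5384 and 5966 units in the cells and 13.1, 145 and 24 units in the tumours, 198-fold higher (log2 7.63, SE 0.52, adjusted p = 6.7e-05). Fn1 (fibronectin) was at 18525 to 24726 units in the cells and 384, 4137 and 725 units in the tumours, and Vim (vimentin) at 23425 to 26023 and 1046, 2522 and 5363 units. For each of these genes every cell library lay above every tumour library. Among the Zeb repressors, Zeb1 was higher in the cells (log2 1.60, SE 0.18) and Zeb2, at 579 to 611 units in the cells and 1356, 1484 and 1678 units in the tumours, was lower (log2 -1.30, SE 0.08). Loxl1, a lysyl oxidase that cross-links elastin, was the other member called lower (log2 -1.61, SE 0.17). Fibroblasts express many genes of this list too. Of 13 fibroblast genes 8 were called lower and 2 higher, and 3 and 2 with a variance per group. Dcn and Pdgfra were lower in the same cell libraries and Postn was higher, as given above. The part of fibroblast-like cells in the EMT list was not tested.

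Among the 10 largest rises were Hmga2, Sox11, Etv4 and Bcat1. Hmga2, a chromatin protein of embryonic and tumour cells, stood at 714, 588, 523 and 672 units in the cells and 0, 9.26 and 0 units in the tumours (log2 8.44, SE 0.45, adjusted p = 3.1e-05). Sox11, a factor of embryonic progenitors, stood at 1324, 1253, 1259 and 1249 units in the cells, 174 units in J5 and 0 in the other 2 tumours (log2 8.45, SE 0.92, adjusted p = 0.00038). Etv4, a factor of the growing ureteric bud, stood at 385 to 466 units in the cells and 0, 4.63 and 0 units in the tumours, at least 75.7-fold higher. Bcat1, the cytosolic enzyme that starts the breakdown of branched-chain amino acids, stood at 3304, 3156, 3124 and 3252 units in the cells and 0, 199 and 9.89 units in the tumours (log2 8.88, SE 1.37, adjusted p = 0.0016). In VM and VIM cells with Dox these 4 genes were expressed too, Hmga2 at 463 to 566 and 1344 to 1614 units, Sox11 at 799 to 949 and 967 to 996 units, Etv4 at 168 to 181 and 276 to 343 units and Bcat1 at 1905 to 2131 and 3267 to 3418 units.

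H19 had the largest rise. This imprinted RNA without a protein (chr7:149761434-149764048, minus strand, NCBIM37), whose gene also holds Mir675, stood at 4296, 5855, 6334 and 4731 units in the cells and 0.933, 818 and 1.41 units in the tumours (log2 9.14, SE 1.12, adjusted p = 0.00062). Only J5 among the tumours was above the floor, and 5 of 5 normal kidneys were at 0. Asb5 (chr8:55635684-55673189), which overlaps 5330439A09Rik on the other strand, stood at 2513, 2291, 2106 and 2511 units in the cells and 2.8, 7.72 and 2.82 units in the tumours (log2 8.97, SE 0.18, adjusted p = 6.2e-06). Fst (follistatin), which binds activin, stood at 3847, 3695, 3449 and 3796 units in the cells and 5.6, 81.8 and 8.47 units in the tumours (log2 8.09, SE 0.52). Fndc3c1, a gene with a fibronectin domain, stood at 544 to 609.5 units in the cells and 0, 6.17 and 1.41 units in the tumours. Gm6644 (chr1:55500577-55501908), annotated as a pseudogene inside Plcl1 on the opposite strand, stood at 366 to 493 units in the cells and 0 in the tumours, at least 76.6-fold higher; its reads could be shared with its parent gene, and the value is uncertain. Of 11 imprinted growth genes 3 were called higher, H19, Peg10 and Mest, and 1 lower. Peg10, a retrotransposon-derived gene of the placenta, stood at 2300.5, 2242, 2050.1 and 2281 units in the cells and 1.87, 892 and 26.8 units in the tumours; its call (log2 6.70) was lost without J6 (log2 5.45). Mest, expressed from the paternal copy, stood at 539 to 623 and 39.2, 52.5 and 45.2 units (log2 3.71, SE 0.13). Igf2, the growth factor beside H19, stood at 10.6, 12, 16.8 and 20.4 units in the cells and 0.933, 58.6 and 2.82 units in the tumours and was not called. The member called lower, Dlk1, was at 0 in the cells and at or under the floor in all tumours, 2.8, 1.54 and 0 units, so that no fold is given; its call was lost without any 1 of the cell libraries and with a variance per group.

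Genes of proliferation were higher in the line by moderate and even amounts. Of 27 DNA replication genes 22 were called higher, against 12.3% of all genes, and none lower, with a median of 1.25 and a highest value of 2.53, against -0.21 over all genes. Of 23 mitosis genes 18 were called higher and none lower, with a median of 1.56. Both counts were the same with a variance per group and rose to 23 and 20 after TMM scaling. Cdc6, which loads the replicative helicase, stood at 1296, 1248, 1238 and 1260.0 units in the cells and 214, 159 and 304 units in the tumours, 5.8-fold higher (log2 2.53, SE 0.06, adjusted p = 7.7e-06). Orc1, a subunit of the origin recognition complex, stood at 498, 471, 449 and 472 and 90.5, 135 and 114 units, 4.42-fold higher, and Mcm5, a helicase subunit, at 5240.0, 5388, 5580.4 and 5395 and 1535, 1176 and 2025 units, 3.51-fold higher. The cells lay above all tumours in each of these genes. Kif20a, a kinesin of cell division, stood at 4093, 4125, 4179 and 4321 units in the cells and 719, 1148 and 1292 units in the tumours, 4.46-fold higher (log2 2.16, SE 0.19, adjusted p = 0.00017). Plk1, a mitotic kinase, stood at 2390.4 to 2576 and 497, 494 and 1004 units, 4.25-fold higher, and Top2a, a topoisomerase of dividing cells, at 12467 to 12924 and 2570.0, 3994 and 5373 units, 3.66-fold higher. Cdc20, an activator of the complex that ends mitosis, stood at 3639 to 3747 and 624, 1799 and 1886 units, 3.45-fold higher. Mki67, the usual proliferation marker, stood at 4515, 5038, 4838 and 5336 units in the cells and 2702, 3569 and 7685 units in the tumours and was not called (log2 0.39, SE 0.25, adjusted p = 0.21). J6 lay above all 4 cell libraries for Mki67, while for Cdc6, Kif20a and Plk1 it lay below them.

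Promoter windows of the DNA replication, mitosis and cholesterol synthesis lists were searched for motifs known from such genes. The search covered both strands in the 250 bases before the start of each gene (RefSeq, GRCm38.p6). List members were chosen by function, so their motif shares do not depend on these data. Why the members moved together was not tested. The E2F motif, spelled TTTCGCGC or TTTGGCGC, stood in 3 of 21 DNA replication genes with a promoter (14.3%; Mcm5, Mcm6 and Orc1), and in 0.759% of 27025 genes. The CHR element, TTTGAA, stood in 7 of 18 mitosis genes (38.9%) and in 18.3% of all. Among members called higher the counts were 3 of 18 for E2F and 5 of 13 for CHR. The sterol element TCACNCCAC stood in 0 of 15 cholesterol synthesis genes and in 1.22% of all, which says only that these letters are not in these windows. A few windows that hold a match are printed 5′ to 3′ on the strand of the gene, with the matches in capitals, to show how the motif lies before the start; a match is a description and not a proven site.
Orc1 (chr4:108579397-108579453, plus strand): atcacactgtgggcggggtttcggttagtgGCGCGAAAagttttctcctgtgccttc
Mcm5 (chr8:75109326-75109397, plus strand): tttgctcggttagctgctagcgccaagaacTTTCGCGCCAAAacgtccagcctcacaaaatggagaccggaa
Cdc20 (chr4:118437344-118437391, minus strand): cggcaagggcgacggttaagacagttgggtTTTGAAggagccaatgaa
Top2a (chr11:99024190-99024398, minus strand): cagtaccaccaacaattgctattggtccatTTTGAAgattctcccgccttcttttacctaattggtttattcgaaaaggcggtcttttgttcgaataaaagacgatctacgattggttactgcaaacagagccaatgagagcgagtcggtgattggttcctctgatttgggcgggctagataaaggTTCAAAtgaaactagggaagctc
In Orc1 the match reads on the opposite strand, in Mcm5 2 matches on opposite strands overlap by 4 bases, and Top2a holds 2 matches on opposite strands. The Orc1, Cdc20 and Top2a windows end at the base before the start.

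Anabolic genes showed the same direction with smaller shares. Of 22 ribosome biogenesis genes 8 were called higher and none lower (median 0.71), led by Bop1, a factor of the large ribosomal subunit, at 4294, 4250.2, 4447 and 4514 units in the cells and 1423, 1315 and 1408 units in the tumours, 3.14-fold higher. Of 24 genes of cholesterol synthesis and uptake 14 were called higher and none lower (median 1.05). Fdps, an enzyme of the mevalonate pathway, stood at 1381, 1392, 1416 and 1482 units in the cells and 159.5, 509 and 120.1 units in the tumours, 7.1-fold higher (log2 2.83, SE 0.17, adjusted p = 4.3e-05), and Sc4mol, a sterol oxidase, at 2252 to 2422 and 188, 1295 and 161 units, 7.84-fold higher. J5 was the highest tumour for both genes. Of 9 fatty acid synthesis genes 4 were called higher, led by Fasn, the fatty acid synthase, at 16849 to 18206 units in the cells and 3974, 6926 and 3569 units in the tumours (3.89-fold). Acss2, which makes acetyl-CoA from acetate, was the 1 called lower, at 181 to 200.2 and 1156, 998 and 1008 units (5.72-fold).

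Of 22 genes of serine synthesis and the amino acid stress response 11 were called higher and 2 lower (median 1.25). Psph, Phgdh and Psat1 are the 3 enzymes that make serine from a glycolytic intermediate. Psph stood at 1329, 1324, 1296 and 1400.4 units in the cells and 232, 221 and 234 units in the tumours, 5.8-fold higher (log2 2.53, SE 0.06, adjusted p = 8e-06). Phgdh stood at 12427 to 13209 and 5061, 6134 and 4493 units, 2.48-fold higher, and Psat1 at 8091 to 8233 and 2008, 1694 and 2942 units, 3.85-fold higher. All 3 tumours lay well below the cells for these enzymes, and within 15 units of each other for Psph. Mthfd2, the mitochondrial folate enzyme, was at 3849 to 3901 and 271, 959.9 and 857 units, 7.8-fold higher, and Slc7a5, a carrier of large amino acids, at 10107 to 10706 and 1120.3, 2844 and 4582 units, 5.17-fold higher. Slc7a11, the cystine-glutamate exchanger, stood at 584, 595, 549 and 636 units in the cells and 18.7, 142 and 18.4 units in the tumours (log2 4.20, SE 0.36, adjusted p = 0.00015). Chac1, a glutathione-degrading enzyme, stood at 332 to 359.7 and 3.73, 131 and 49.4 units (log2 4.16, SE 1.02). The 2 called lower were Nupr1, a stress-induced chromatin protein (log2 -1.22, SE 0.16), and Sesn2, a leucine sensor (log2 -1.14, SE 0.10). Nupr1 stood at 413, 252 and 1455 units in the tumours, and without J6 its difference was -0.59 and was not called. The Sesn2 call was lost without J5 (log2 -0.84).

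Oxidative genes lay the other way. Of 17 genes of fatty acid oxidation 11 were called lower and none higher (median -1.26). Ppara, the nuclear receptor that controls them, stood at 6.15, 8.7, 4.33 and 7.86 units in the cells and 377, 419.8 and 87.6 units in the tumours, 35.7-fold lower (log2 -5.16, SE 0.39, adjusted p = 9.5e-05). Cpt1a, which admits fatty acids to mitochondria, stood at 898 to 956 and 5059, 4005 and 4247 units, 4.92-fold lower, and Acadm, a dehydrogenase of medium-chain acids, at 744 to 780.4 and 3695, 1563 and 4062 units, 3.96-fold lower. Of 18 genes of glycolysis and lactate export 5 were called higher and 1 lower. Hk1 and Hk2, which phosphorylate glucose, stood at 970.1 to 1105 and 1824 to 2128 units in the cells and at 121, 955 and 349 and 388, 1182 and 694 units in the tumours. Ldha, which makes lactate, stood at 32210.2 to 34672 and 11474, 17076 and 21482 units, and Pkm2, pyruvate kinase, at 35183 to 37524 and 6872, 25912 and 18746 units. The 2917 tumour was the lowest library for all 4 genes, and without it Hk1 (log2 0.84), Ldha (log2 0.80) and Pkm2 (log2 0.73) were not called. The Hk1 call was also lost without J6 and without cell replicate 4 (log2 1.60 and 1.93). Pdk1, which restrains pyruvate oxidation, was lower in the cells, at 1289.8 to 1371 and 4166, 5779 and 6006 units (log2 -1.88, SE 0.13).

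Pdk1 is also a target of the hypoxia factor HIF. Of 12 hypoxia genes 4 were called lower (3 with a variance per group) and none higher, against 26.1% lower among all genes. Ndrg1, a stress and hypoxia gene of epithelia, stood at 1058, 1034, 1095 and 1117 units in the cells and 57569.9, 44123 and 27713 units in the tumours, 41.7-fold lower (log2 -5.38, SE 0.19, adjusted p = 1.1e-05). Bnip3, a mitophagy receptor, stood at 331 to 377 and 1257, 3685 and 3120.1 units, 6-fold lower. In normal kidney Ndrg1 stood at 31989.6 to 45132 units, near the tumours. In the MYC and MAX network 4 of 13 genes were called lower (2 with a variance per group), against 26.1% of all genes. They were led by Mlxipl, the glucose-sensing partner of MLX, at 104 to 128 units in the cells and 2590.5, 2173 and 2055 units in the tumours (20.5-fold). Myc was the 1 called higher.

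Actin genes and the targets of SRF, YAP and TAZ are known to respond to attachment and cell shape. Of 18 actin and SRF target genes 13 were called higher and none lower (median 1.60), among them Actb, beta-actin, at 58071 to 63863 units in the cells and 17717, 16732 and 19705 units in the tumours (3.43-fold). Of 18 YAP and TAZ targets 7 were called higher and 2 lower. Ankrd1, a nuclear target of YAP, stood at 3887, 3541, 3297 and 3921 units in the cells and 172, 312 and 661 units in the tumours, 13-fold higher (log2 3.70, SE 0.35, adjusted p = 0.00022). The secreted CCN proteins Cyr61 and Ctgf stood at 11019.9 to 12609.5 and 7869 to 9554 units in the cells, 11.5- and 9.59-fold higher, against 629.7, 1042 and 2702 units and 438, 2562 and 1460.5 units in the tumours. Igfbp3, a binding protein of insulin-like growth factors, was the other extreme, at 8.39, 7.61, 6.5 and 7.34 units in the cells and 1122, 2140.4 and 496 units in the tumours, 128-fold lower (log2 -7.00, SE 0.20). Among 28 basement membrane and integrin genes 4 were called higher and 7 lower, near the 12.3% and 26.1% of all genes. Itga3, an integrin chain that binds laminin, stood at 11002, 10586, 10164 and 11393 units in the cells and 470.1, 850.3 and 444 units in the tumours, 20.02-fold higher, whereas Nid1, a linker of the basement membrane, stood at 21.8, 23.4, 20.05 and 24.1 and 1032, 849 and 929 units, 41.2-fold lower. Lama3, a laminin chain, had the largest fall (log2 -5.65, SE 0.65), with 0 to 3.14 units in the cells and 171, 272 and 16.9 units in the tumours, and was not called with a variance per group. Of 21 AP-1 and immediate early genes 3 were called higher and 5 lower, also near the 12.3% and 26.1% of all genes. Fosl1 stood at 53.6 to 69.1 units in the cells and 0.989, 5.68 and 9.03 units in the tumours (15.1-fold higher), and Jun, its dimer partner, at 913 to 991 and 2842, 5020.1 and 3035 units (3.55-fold lower).

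Antigen presentation and complement were among the lists with the deepest falls. Of 15 MHC and antigen presentation genes 13 were called lower and none higher (10 lower with a variance per group), with a median of -3.14, or -2.77 with floor genes at their bound. H2-Ab1, a class II chain of antigen-presenting cells, was at most at 0.524 units in the cells and at 777, 1189.8 and 154 units in the tumours, at least 216-fold lower, and Cd74, the class II chaperone, stood at 4.47, 10.3, 1.63 and 9.96 and 2503, 3668 and 373 units. Class I genes were called lower by smaller amounts. H2-K1, carried by most cells, stood at 1398 to 1440.1 units in the cells and 7506, 6677 and 4839 units in the tumours, 4.61-fold lower (log2 -2.21, SE 0.11), and B2m at 2329.7 to 2559.9 and 7769, 6645 and 4383 units, 2.62-fold lower. The macrophage markers described above were also lower in the cells, but the order of the tumours differed. The MHC list summed to 29455, 28206 and 14514 units in the tumours, and the macrophage list to 31022, 8609.6 and 8350.3 units. The part of macrophages in the MHC list was not tested.

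Of 11 complement genes 10 were called lower and none higher (9 lower with a variance per group; median -6.67). Cfb, factor B of the alternative pathway, stood at 2.24, 1.63, 1.63 and 1.05 units in the cells and 9241, 1221 and 1958 units in the tumours (log2 -10.51, SE 0.68, adjusted p = 5.7e-05). C3, the central component, remained well above the floor in the cells, at 647, 830.3, 841 and 709.6 units against 26115, 10847 and 3441 units in the tumours (16.8-fold lower), and C4b was at 55 to 78.9 and 15640.5, 9342 and 7213 units (174-fold lower). Apob and Serpina10 were among the 10 largest falls. Apob (chr12:7984454-8023641), the protein of lipoprotein particles, stood at 0, 0.544, 0.542 and 1.05 units in the cells and 11361, 3144 and 6941 units in the tumours, at least 2722-fold lower, and Serpina10, an inhibitor of coagulation, at 0.559, 0, 1.08 and 0.524 and 9752, 451 and 3414 units, at least 1300.0-fold lower. Normal kidney stood at 1931 to 5078 units of Apob and 9.77 to 69.6 units of Serpina10.

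Of 19 interferon response genes 7 were called lower and 2 higher, against 26.1% and 12.3% of all genes. With a variance per group only 2 were called lower and 0 higher, where 2550 and 1567 of all 16317 genes were. Irf7, a master regulator, stood at 20.05 to 26.2 units in the cells and 277, 207 and 167 units in the tumours (9.4-fold lower), and Isg15, a ubiquitin-like protein, at 54.7 to 94.9 and 28, 52.5 and 7.06 units; the Isg15 call (log2 1.68) was lost without J6 (log2 0.9975). Of 21 chemokines and cytokines 6 were called higher and 5 lower, against 12.3% and 26.1% of all genes. Ccl20, which draws lymphocytes, stood at 225, 282, 248 and 229 units in the cells and 12.1, 1.54 and 0 units in the tumours (log2 5.75, SE 0.77, adjusted p = 0.00088), and Ccl2, which draws monocytes, at 585, 762, 651 and 642 and 39.2, 69.4 and 2.82 units (log2 4.68, SE 0.34). Cxcl16, a membrane-bound chemokine, stood at 5.89 to 17.3 and 1765, 895 and 279 units and was 83.3-fold lower.

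Markers of tubule injury divided in the same way, with 3 of 11 called higher and 4 lower, against 12.3% and 26.1% of all genes. Havcr1, which encodes KIM-1, stood at 3448, 3366, 2969 and 3426 units in the cells and 1271, 427 and 212 units in the tumours (log2 2.41, SE 0.52, adjusted p = 0.0066), and Cd44, a hyaluronan receptor, at 5299 to 6032 and 2052, 1281 and 2274 units (3.06-fold higher). Krt20, a keratin of injured tubules, stood at 48.6, 32.1, 33.6 and 50.8 units in the cells and 3515, 1231 and 5032 units in the tumours, 71.4-fold lower (log2 -6.16, SE 0.26), and Vcam1, an adhesion molecule, at 119.6 to 172 and 11985, 1890.4 and 870.1 units (27.7-fold lower).

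Of 21 p53 targets and cyclin-dependent kinase inhibitors 8 were called lower, against 26.1% of all genes, and Cdkn2a was the only one called higher. Trp53 itself stood at 299.7, 347, 336 and 331 units in the cells and 2092, 1699 and 2236 units in the tumours, 6.14-fold lower (log2 -2.62, SE 0.08, adjusted p = 1.1e-05), and its target Trp53inp1 at 60.4 to 66 and 1501, 1082 and 1039.5 units, 19.9-fold lower. The tumours exceeded normal kidney for Trp53, which stood at 369 to 449.5 units there. Of 16 NRF2 targets 5 were called higher, against 12.3% of all genes, and none lower. They were led by Nqo1, a quinone reductase, at 609.9, 518, 521 and 633 units in the cells and 22.4, 30.9 and 8.47 units in the tumours (28.2-fold). Hmox1, heme oxygenase, stood at 1517 to 1715 and 336, 660.5 and 364 units (4.02-fold). Of 17 lysosome genes 8 were called lower, against 26.1% of all genes, and none higher. Ctsk (cathepsin K) had the largest fall (log2 -3.70, SE 0.25) at low levels, and Ctsb (cathepsin B) stood at 2366 to 2422 and 18569.9, 7783 and 9427 units (5.28-fold lower). Of 21 growth factor receptors 4 were called higher and 10 lower, against 12.3% and 26.1% of all genes. Epha2, an ephrin receptor, stood at 1777 to 1983 units in the cells and 169.8, 568 and 208 units in the tumours (7.78-fold higher), and Axl, a receptor for GAS6, at 2753 to 3179.9 and 1496, 879.6 and 460.5 units (3.03-fold higher). Mertk, the relative of Axl that takes up dead cells, went the other way, at 11.7 to 19.9 and 488, 364 and 322 units (25.7-fold lower), as did Fgfr4, a fibroblast growth factor receptor, at 124 to 151 and 1437, 662 and 1583 units (8.71-fold lower).

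The 3 tumour libraries were not alike, and animal 2983 was not uniform. Of the genes called higher in the cells, J5 lay below all cell libraries for 1812 of 2011 (90.1%), J6 for 1994 (99.2%) and 2917 for 2010. Of the genes called lower, J5 lay above all cells for 4162 of 4264 (97.6%), J6 for 3875 (90.9%) and 2917 for all 4264. The genes were called from these same libraries, with 2917 as a unit of its own and J5 and J6 averaged. The counts thus follow in part from the fit and are no separate evidence that the libraries differ. After these values were seen, and outside the rule for named genes, those at 100 units or more in all 4 cell libraries and at or under the floor in 2917 were listed. There were 52. J5 was above its floor for 42 of them and above 50 units for 26, with a median of 15.1% of the mean level in the cells, and J6 was above its floor for 25 and above 50 units for 7, with a median of 0.823%. Both libraries of animal 2983 were at or under the floor for 10. Because 2917 was at the floor by choice, these counts cannot tell whether animal 2983 lay closer to the cells than 2917. No share over all genes at the floor in 2917 was computed. J5 also had the most genes above 0, 15916 against 15402 in 2917 and 14898 in J6. Krt17, a keratin of basal epithelium, stood at 929.7, 1076, 1142 and 1053 units in the cells and 1.87, 873 and 7.06 units in the tumours, so that J5 lay near the cells; its call (log2 6.08) was lost without J6 (log2 4.39). Gli3, a hedgehog factor, stood at 278 to 323 and 0, 102 and 2.82 units, Pitx1, a limb factor, at 237 to 263 and 0, 66.4 and 0 units, Tubb3, a neuronal tubulin, at 304 to 373 and 0, 134 and 0 units, and Ephb2, an ephrin receptor, at 225 to 247 and 0.933, 463 and 25.4 units. These 5 genes were picked as higher in J5 than in J6, which held for 45 of the 52, while J6 was above J5 for 5. The Tubb3 call was lost without J6 (log2 4.88), and the Ephb2 call (log2 4.01) was lost without J6 (log2 2.97) and without any 1 of the cell libraries (log2 3.98 to 4.02). In the other direction, 238 genes had 100 units or more in 2917 and were at or under the floor in all cells. J5 was above its floor for 225 of them and J6 for 218, and both had 100 units or more for 59. These genes were picked as high in 2917, so lower levels in J5 and J6 are partly built in. The same count was 154 starting from J5 and 102 starting from J6. No share over all genes at the floor in the cells was computed. J5 was also the tumour library with the highest summed level of endothelial markers (4478 units, against 2559.7 in 2917 and 893 in J6), of B and plasma cell markers (1057 units, against 149 and 22.6) and of fibroblast markers (15917 units, against 1855 and 2034); their part in the levels of J5 was not tested.

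**Figure D3:**
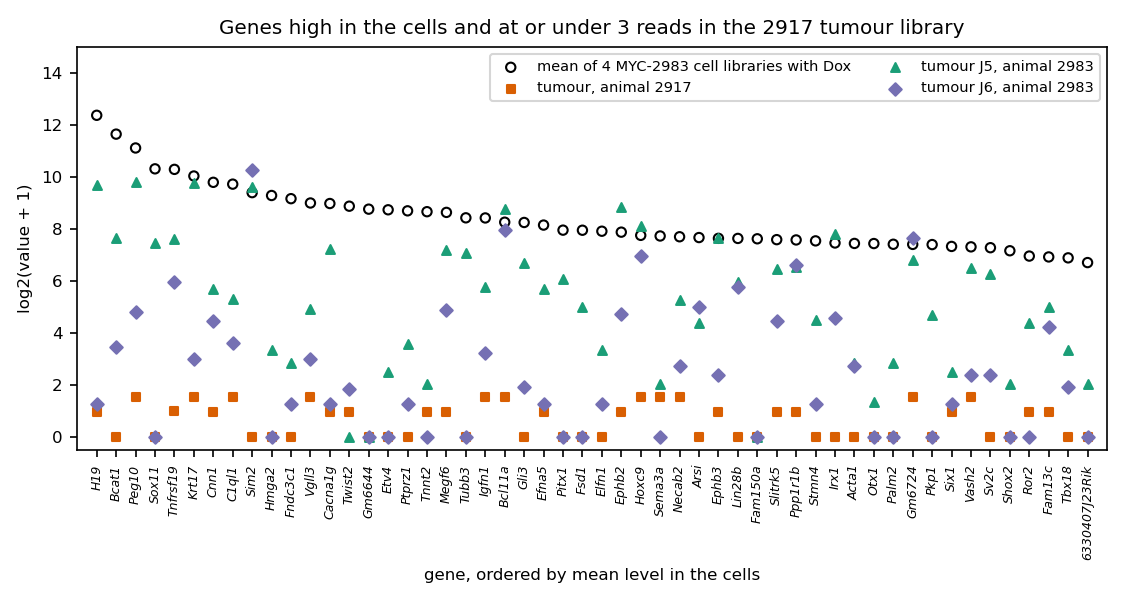
The 52 genes at 100 units or more in all 4 MYC-2983 cell libraries and at or under 3 reads in the 2917 tumour, ordered on the x axis by their mean in the cells (open circles), with each tumour library as log2(value + 1) on the y axis. The J5 triangles lie mostly between the cells and the J6 diamonds, J5 is above its floor for 42 genes and J6 for 25.

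The last question is how the signed difference, cells minus tumours, of the MYC model compared with that of the other 2 models. VM animals add Vhl F/F alleles and KspCreERT2, and VIM animals further carry a germline deletion of Ink4a/Arf (Cdkn2a). The study's methods give tamoxifen by mouth to activate Cre. VM and VIM each have 4 cell libraries with Dox and 3 tumour libraries, and both contrasts below use the same 7 MYC libraries, so they are not independent. The contrasts are signed, so a positive value, called an excess below, need not mean a larger change in the MYC model. Relative to VM, the MYC difference between cells and tumours was called higher for 1791 of 17361 genes (10.3%) and lower for 1183 (6.81%). Relative to VIM it was higher for 2305 (13.3%) and lower for 1077 (6.20%). Of these, 1054 genes were called higher and 455 lower against both. Myc, Vhl and Cdkn2a were called higher against both, and Cdh16 against VM. The MYC difference for Myc exceeded that of VM by 1.68 (SE 0.33) and that of VIM by 1.28 (SE 0.33), with VM cells at 338 to 413 and VM tumours at 409 to 801 units. For Vhl, deleted by Cre in the other models, it exceeded them by 1.71 and 4.05; VM cells held 10.3 to 14.9 units and VIM cells 8.32 to 18 units against 40.2 to 79.9 and 219 to 312 units in their tumours. For Cdkn2a the excess was 3.97 over VM, where both cells (3473 to 4189.8 units) and tumours (3392 to 4347 units) were high, and 4.51 over VIM, where cells stood at 24.9 to 34.7 units and tumours at 30.1 to 95.5 units. Cdh16 exceeded the VM difference by 1.20 (SE 0.25), with VM cells at 3464 to 3512 and VM tumours at 8544 to 14725 units.

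The 5 genes with the largest excess in both contrasts were H19, Fst, Camkv, Cd34 and Pcp4l1. H19 exceeded the VM difference by 15.14 (SE 1.76, adjusted p = 6.9e-06) and the VIM difference by 12.50 (SE 1.76, adjusted p = 5.5e-05). VM cells held 0 to 0.877 units and VIM cells 0 to 1.97 units of it, with VM tumours at 7.22 to 1088 and VIM tumours at 10.03 to 40.4 units, opposite in order to the MYC model. Fst, by 14.65 and 10.78, was at 4.39 to 9.61 units in VM cells and 152 to 2032 units in VM tumours. Cd34 is a sialomucin of vessels and progenitor cells. It stood at 4062, 3837, 3487 and 4142 units in MYC-2983 cells and 184, 395 and 72 units in MYC tumours (log2 4.45, SE 0.09). This SE leaves out the spread between the libraries of animal 2983, at 395 and 72 units. In VM cells Cd34 stood at 0.739 to 3.51 units and in VIM cells at 2.77 to 4.59 units, an excess of 10.37 and 9.49. Camkv, a calmodulin-binding kinase-like protein of neurons, stood at 522 to 587 units in MYC-2983 cells and 4.66, 1282 and 97.5 units in MYC tumours, a difference that was not called (log2 3.64, SE 1.47, adjusted p = 0.068), while VM and VIM cells had at most 1.31 units, an excess of 10.62 and 10.28. Pcp4l1, a small protein first known from Purkinje cells, stood at 48.1 to 59.2 and 107, 43.2 and 62.1 units in the MYC model and was not called there, whereas VM cells held 0 to 1.7 units and VM tumours 465 to 3823 units, an excess of 9.07 and 9.56. Camkv and Pcp4l1 thus stood far lower in VM and VIM cells than in their tumours, without a call in the MYC model.

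The 5 at the other end were Hmgcll1, Dach1, Rims2, Srd5a2 and Nox4. Hmgcll1, a ketone body enzyme, was at 0 to 0.559 units in MYC-2983 cells, 2.8, 6.17 and 42.4 units in MYC tumours and 231 to 292 units in VM cells, a difference of -7.46 against VM and -6.96 against VIM. Dach1, a factor that works with EYA proteins, was at 1.68 to 3.26 units in the cells and 232, 43.2 and 181 units in MYC tumours (-6.06 and -6.01), while VM tumours had 1.03 to 3.99 units. Nox4, an oxidase abundant in tubules, was at 19 to 35.2 units in the cells and 3237, 514 and 826 units in MYC tumours, 54.6-fold lower, with 471 to 546 units in VM cells and 546 to 687 in VIM cells (-6.73 and -5.42); normal kidney stood at 7974 to 17859.6 units. Srd5a2, a steroid reductase, was at 0 in MYC-2983 cells and at 186, 13.9 and 67.8 units in MYC tumours but at most at 3.09 units in VM and VIM tumours (-5.59 and -6.27). Rims2, a vesicle protein, was at 9.21 to 14.5 units in the cells and 117, 9.26 and 66.4 units in MYC tumours, with J5 below the cells, and its differences were -5.80 and -8.00. Its own call in the MYC model (log2 -2.15) was lost without J6 (log2 -1.47).

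**Figure D4:**
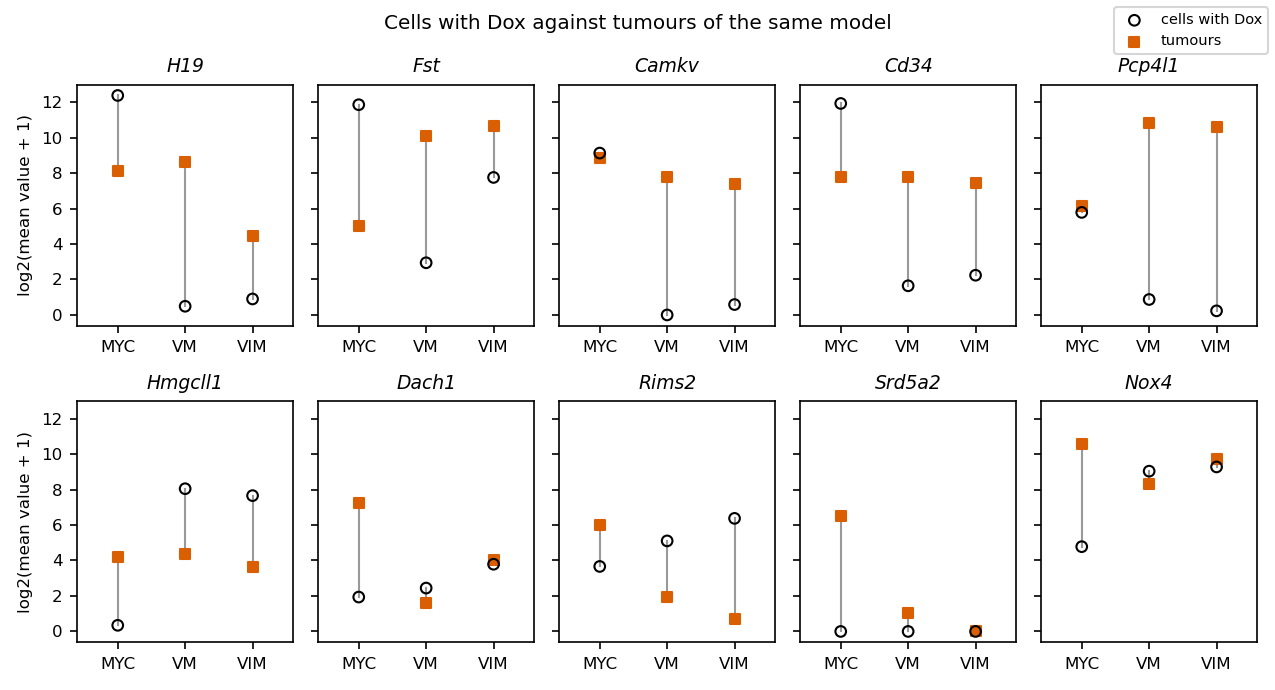
Mean level, as log2(mean value + 1) on the y axis, in cells with Dox (open circles, 4 libraries) and tumours (squares, 3 libraries) of the MYC, VM and VIM models. Shown are the 5 genes whose signed MYC difference lay furthest above (top row) and the 5 furthest below (bottom row) those of both other models. The circle lies above or near the square for MYC and far below it for VM and VIM in the top row, and below the square for MYC in the bottom row.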

How the data were processed

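RNA was measured in 4 libraries of MYC-2983 cells with Dox and 3 libraries of MYC tumours (paired-end, stranded mRNA libraries). The authors aligned reads to mm9 with MapSplice, estimated gene abundances with RSEM on UCSC knownGene and scaled each library to a fixed upper quartile; Picard 1.64 and SAMtools also appear in the submitters' processing notes. The deposited gene signal is therefore scaled, has no length correction and is not a count, so levels of different genes are not compared. Among low values, 94.3% to 95.5% in the cell libraries lay within 0.02 of whole multiples of 1 read, which gave the read totals and the floor; no count test was run.

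Of 21705 rows, genes above 0 in at least 2 of the 6 fitted units were tested with limma 3.58.1 (R 4.3.3) on log2(value + 1), with an intensity trend, two-sided, and Benjamini-Hochberg adjustment over all genes tested. The 6 units were the 4 cell libraries and the 2 tumour animals. Differences from VM and VIM were contrasts in 1 fit of 6 groups. The fit was also run on simulated data with equal spread in cells and tumours and no spread between libraries of 1 animal. Such data cannot test the unequal spread of the real groups. Figures were drawn with matplotlib 3.10.9.

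Members, lists and alternatives were chosen with earlier results of these data known. The genes named were the targeted genes Myc, Vhl, Cdkn2a and Cdh16, the called list members with the largest changes and the defining genes of each list, the 10 largest rises and 10 largest falls whose higher group averaged 50 units or more and whose libraries did not overlap, and the 5 largest differences per direction called against both VM and VIM; some genes that this rule names are not reported here. Positions are NCBIM37 (mm9) from GENCODE; promoter sequences are from RefSeq, GRCm38.p6. Alternatives covered the pseudocount, filter, scaling, spread, tumour libraries, Dox and each library left out.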

Additional observations from a re-analysis of the deposited data

Results flagged for a closer look

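Among 141 named genes tested, 12 had 1 of the 4 MYC-2983 cell libraries with Dox far from the other 3 (gap over range above the Dixon critical value for 4 samples), and chance flags about 1 in 20. For Lyz2, Ctss, C1qa, Cd8a, Hba-a2, Igj and H2-Ab1 the ratio was 1, with 3 cell libraries at 0 and the other at no more than 1.09 units. It was 0.926 for Dach1, 0.907 for Csf1r, 0.896 for Bnip3, 0.871 for Sox11 and 0.83 for Havcr1. The 12 were spread over all 4 libraries.

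The log2 difference between cells and tumours differed, by the contrast in 1 fit, between the MYC model and both others for Myc, Vhl and Cdkn2a, and between MYC and VM for Cdh16. MYC minus VM and MYC minus VIM were 1.68 and 1.28 for Myc, 1.71 and 4.05 for Vhl, and 3.97 and 4.51 for Cdkn2a; for Cdh16 MYC minus VM was 1.20. Among the named genes the same values were 15.14 and 12.50 for H19, 14.65 and 10.78 for Fst, 10.62 and 10.28 for Camkv, 10.37 and 9.49 for Cd34, and 9.07 and 9.56 for Pcp4l1. They were -7.46 and -6.96 for Hmgcll1, -6.06 and -6.01 for Dach1, -5.80 and -8.00 for Rims2, -5.59 and -6.27 for Srd5a2, and -6.73 and -5.42 for Nox4. The 3 models differ in line, animals and the use of tamoxifen to activate Cre as well as in genotype. They also differ in whether the tumours share the animal number of the line. J5 and J6 do so for MYC-2983. By the line names in the study, VM tumour 3055 does so too, but none of the VIM tumours, 3237, 3233 and 3130, does. The numbers that end the sample titles also restart between VM and MYC-2983 cells. Depth differed too, with 24.8 to 26.9 M estimated reads in MYC-2983 cells with Dox, 14.4 to 17.3 M in VM cells and 15.9 to 19.9 M in VIM cells. These cannot be told apart.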

How the results depend on the processing

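The number of genes called changed by less than 1.5 times under every alternative except 1 variance per group, with 4117 called in all and 2550 lower. Quantile normalization moved the direction counts to 3238 higher and 2753 lower, or 54.05% higher among calls against 32.05% in the fit as reported and 40.8% with TMM. Using MYC-2983 cells without Dox, while the VM cells stayed those with Dox, gave 2833 genes with a positive difference from VM. That count mixes the Dox label with the model. Leaving out 1 library at a time gave 5560 to 6088 genes called, 1697 to 2255 higher and 3733 to 4351 lower; for the difference from VM it gave 2649 to 3054 called, 1628 to 2027 positive and 1020 to 1380 negative, and for that from VIM 3033 to 3532 called, 2011 to 2552 positive and 956 to 1238 negative. Of 153 named genes, 144 were called, and 126 were called in every fit that left out a library. Over 3021 fits of named genes, 2909 kept direction and call, 85 lost the call and 11 gained it. The other 16 changed sign, in genes that were not called. With TMM these were Vhl (0.017) and Pax8 (0.058), and with quantile normalization Vhl (0.023) and Pcp4l1 (0.62). With tumours of animal 2983 alone, which is the same as leaving out the 2917 library, Mki67 was -0.089 and Pcp4l1 0.053; over the fits that left out 1 library, the ranges were -0.089 to 0.66 for Mki67 and -0.59 to 0.053 for Pcp4l1. With 2917 alone Pax8 was 0.14 and Lrp2 -0.31. With cells without Dox Vhl was 0.056, Cdh16 0.026, Pax8 0.42, Mki67 -0.27, Camkv -0.50 and Pcp4l1 1.57. The cause was not tested. A fit with the animal as a random effect was not run, since the correlation could not be estimated. No paired analysis was possible because the labels give cells and tumours no shared replicate numbers. Tumour depth limits low genes: 3 reads were 2.8 to 4.63 units there.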
